A study of Mus musculus with 36 samples.

Results

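The brain response of mice to bacterial lipopolysaccharide (LPS) was described by comparing 3 brain arrays of LPS-injected mice with 3 brain arrays of mock mice, among the 36 arrays of the series. All mice were female FVB mice, 6 to 8 weeks old, carrying a luciferase transgene of unstated promoter. Mock mice were described as untreated and LPS mice received 4 mg/kg LPS into the peritoneal cavity, so injection and LPS cannot be told apart, and brains were taken about 4 h later. A further 3 brain arrays came from mice given LPS and then genipin, a compound of gardenia fruit. The study used several genipin doses, and the labels do not say which of them these arrays hold. These arrays entered the choice of probe and the estimate of the spread between arrays, and their levels are given beside a few results without a test. Every gene with a probe measured in brain was included, which gave 10224 of the 12394 genes on the array, each represented by its brightest probe. No label ties the 3 arrays of a group to separate mice, so p-values reflect the variation among arrays, which may be technical.

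LPS is a component of the outer membrane of Gram-negative bacteria. It is sensed by TLR4 with its co-receptors CD14 and MD-2, which activates NF-kB and, through interferon regulatory factors, type I interferon. LPS given outside the brain acts mainly at the blood vessel wall and the border tissues of the brain, and the signal is passed on to microglia and astrocytes. Microglia are the resident macrophages of the brain, and in inflammation they lower the genes that mark their resting state. Stress hormones released in the same reaction act on glucocorticoid-responsive genes in neurons and glia.

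Arrays of the mock group correlated at 0.997 to 0.998 over the 10224 genes and those of the LPS group at 0.989 to 0.992, whereas mock and LPS arrays correlated at 0.968 to 0.979. The median standard deviation between arrays was 0.0585 (log2) in mock and 0.140 in LPS brains. Both groups were bright for neuronal markers, of which 5 of 8 listed were measured. Their summed intensity was 197354 to 213569 in mock and 206939 to 215351 in LPS brains. Among them Snap25 was saturated in both groups and Syt1 with LPS. Skeletal muscle markers summed to 115862 to 122687 in the same mock arrays and to 3713 to 3973 in the LPS arrays, as described below. In the rest of the text, intensities are on the linear scale in the order of array 1, 2 and 3, with a floor of 263. Differences are LPS minus mock on the log2 scale ± SE, with limma's p adjusted over all 10224 genes. A gene at the floor, or at or above 60000 where the scanner saturates, on all arrays of a group is given a bound ("at least").

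At an adjusted p of 0.05, 3460 of 10224 genes (33.8%) passed, 1675 higher (16.4% of genes tested) and 1785 lower (17.5%) in the LPS brains. Most differences were small, with 2585 of the calls under 1.5-fold. Calls of at least 2-fold numbered 243 (2.38%), of which 164 were higher and 79 lower, and 39 genes rose and 17 fell at least 4-fold. Mock and LPS arrays were fully separated (not overlapping) in 4883 genes (47.8%). With the arrays scaled on 10 housekeeping genes in place of the deposited normalization, the median difference of all genes moved from −0.0017 to −0.105, and 777 genes were higher and 1685 lower, so that 31.6% of calls were higher against 48.4% here. This scaling moved LPS array 3 by −0.238 (log2) and the other mock and LPS arrays by 0.0074 to 0.0894, so its effect rested mostly on 1 array. The count of called genes was 2261 without mock array 3. Counts of list members are read against these background shares.

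**Figure D1:**
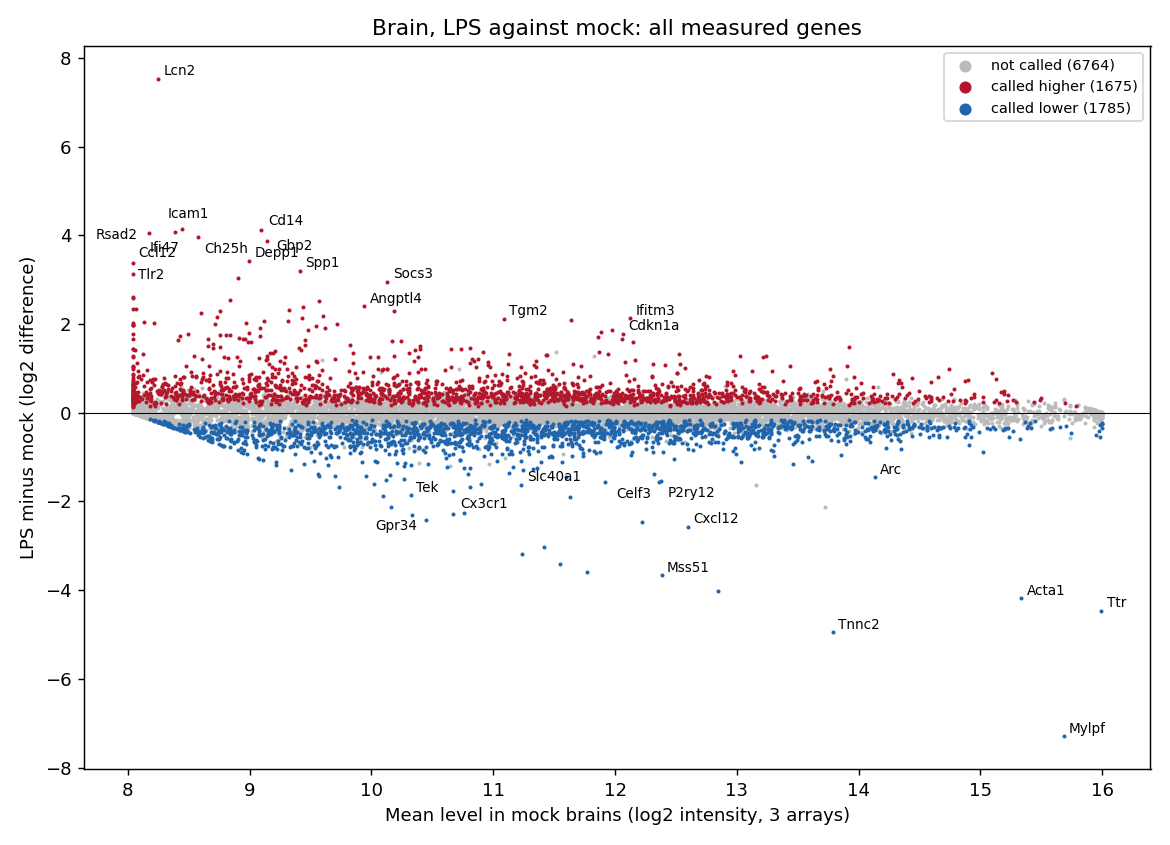
Mean level of each of the 10224 genes in mock brains (log2 intensity, horizontal) against the LPS minus mock difference (log2, vertical). Red points are genes called higher, blue points genes called lower and grey points genes not called. Lcn2 stands highest at 7.53 and Mylpf lowest at −7.29, and genes at the left edge lay at the floor of 263 in mock. The values of Lcn2 and Mylpf would be bounds at a saturation limit of 50000.

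The largest rise was that of Lcn2, which encodes lipocalin 2, a binder of bacterial siderophores that reactive astrocytes secrete. Its intensity was 285, 342 and 289 in the mock arrays and 56070, 53016 and 59179 in the LPS arrays. That was a 184-fold rise (7.53 ± 0.08, adjusted p = 3.78e-09). The LPS values lay close under the saturation limit of 60000. At a limit of 50000 every LPS array of Lcn2 would count as saturated, and its rise would be a bound. Icam1, the endothelial ligand for leukocyte integrins on chromosome 9 (21015940 to 21028814), went from 360, 330 and 354 to 5892, 6589 and 5860 (4.13 ± 0.06, adjusted p = 7.59e-09). Ch25h, which makes 25-hydroxycholesterol, stood at 362, 401 and 379 in mock and 5888, 5974 and 5908 with LPS (3.96 ± 0.06). For each of these genes every LPS array was above every mock array, which was a condition for naming the largest changes. Other large rises were those of Depp1, a regulator of autophagy (3.42 ± 0.10), the secreted phosphoprotein Spp1 (3.20 ± 0.07), the tubulin Tubb6 (2.55 ± 0.08), the RNA-destabilizing protein Zfp36 (2.53 ± 0.10) and the lipase inhibitor Angptl4 (2.40 ± 0.09). The kinase Map3k8, at the floor in mock, was at least 3.93-fold higher.

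Interferon-inducible GTPases rose together. All 7 measured members of the guanylate-binding protein and immunity-related GTPase families, of 16 listed, were higher, with a median of 2.33 against −0.0017 over all genes. These proteins attack the membranes that surround intracellular pathogens. Ifi47 went from 320, 356 and 327 to 4997, 5775 and 6203 (4.08 ± 0.08) and Gbp2 from 535, 609 and 557 to 7980, 8171 and 8686 (3.87 ± 0.07). Gbp3 stood at 484, 471 and 481 in mock and 4098, 4413 and 3345 with LPS (3.04 ± 0.10). For all 7 members the lowest LPS array exceeded the highest mock array. Irgm1 rose by 2.31 ± 0.13. Irgm2 went from 263, 279 and 263, with 2 of 3 mock arrays at the floor, to 1523, 1306 and 1243, a difference of 2.33 ± 0.09 that is set against the floor in those arrays. Igtp, at the floor in all 3 mock arrays, was at least 3.44-fold higher. Gbp6 rose least, by 0.42 ± 0.11 (adjusted p = 0.0236), and did not pass with housekeeping scaling (adjusted p = 0.136).

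Of 12 measured genes of the IFIT, viperin and ISG15 system, antiviral effectors that act on viral RNA, membranes and proteins, 11 rose and 1 fell, with a median of 1.90. Rsad2, which encodes viperin (chromosome 12, 26442743 to 26456452), went from 292, 308 and 269 to 4541, 5134 and 4657 (4.04 ± 0.10, 16.5-fold). The ubiquitin-like Isg15 and its protease Usp18 lay at the floor in mock and were at least 6.14-fold and 5.06-fold higher. Ifit3 rose from 653, 611 and 832 to 3698, 3194 and 3972 (2.38 ± 0.13), and Ifit2 and the membrane protein Ifitm3 rose by 2.14 ± 0.16 and 2.13 ± 0.04. Cmpk2, a nucleotide kinase gene beside Rsad2 on chromosome 12 (26469117 to 26479837), was already bright in mock at 7394, 7412 and 8010 and reached 8629, 9202 and 9087 (0.24 ± 0.08, adjusted p = 0.0429). That call was lost in 8 of 17 alternative analyses. Ifi27, a mitochondrial protein, fell by 0.40 on the log2 scale (SE 0.12, adjusted p = 0.0377), which was lost in 8 of 17.

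Promoters of these genes and of other interferon- or NF-kB-responsive genes were read from RefSeq windows of 250 bases before to 50 bases after each start site (GRCm38.p6), because both pathways act through short elements close to the start. The interferon-stimulated response element (ISRE) was searched as GAAANNGAAA, the gamma-activated site (GAS), bound by STAT proteins, as TTCNNNGAA, and the kappaB site of NF-kB is given by its name alone, all on both strands. The stretches show the match in capitals with 20 bases on each side, written 5′ to 3′ on the strand of the gene, and all lie before the gene's first annotated base. A match on the opposite strand reads as its reverse complement. The first 5 lines hold an ISRE, the next 3 a kappaB site and the last 2 a GAS.
Gbp2, ISRE, chr3:142620584-142620633, plus strand: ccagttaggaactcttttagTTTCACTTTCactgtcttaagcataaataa
Irgm1, ISRE, chr11:48871421-48871470, minus strand: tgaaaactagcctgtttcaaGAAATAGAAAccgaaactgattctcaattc
Irgm2, ISRE, chr11:58214893-58214942, plus strand: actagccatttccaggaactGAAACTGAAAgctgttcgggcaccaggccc
Isg15, ISRE, chr4:156200861-156200910, minus strand: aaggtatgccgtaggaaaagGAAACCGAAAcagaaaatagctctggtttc
Rsad2, ISRE, chr12:26456543-26456592, minus strand: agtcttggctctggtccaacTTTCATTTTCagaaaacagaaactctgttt
Tnfaip3, kappaB, chr10:19015506-19015555, minus strand: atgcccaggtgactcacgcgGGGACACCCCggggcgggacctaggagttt
Ccl9, kappaB, chr11:83578642-83578691, minus strand: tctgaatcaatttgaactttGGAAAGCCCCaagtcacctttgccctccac
Csf1, kappaB, chr3:107760594-107760643, minus strand: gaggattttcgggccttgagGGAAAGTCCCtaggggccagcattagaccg
Icam1, GAS, chr9:21015878-21015926, plus strand: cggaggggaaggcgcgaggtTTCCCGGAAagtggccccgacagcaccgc
Irf1, GAS, chr11:53769904-53769952, plus strand: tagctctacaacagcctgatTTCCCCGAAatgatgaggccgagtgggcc

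An ISRE was found in 3.44% of all 32851 windows of the table, in 2.59% of the 10744 windows of genes measured in brain and in 8.72% of the 172 windows of genes called higher by at least 2-fold. A GAS was found in 8.30%, 6.75% and 16.9% of these windows, and a kappaB site in 4.51%, 5.18% and 16.3%. In the 79 windows of genes called lower by at least 2-fold the shares were 2.53% for ISRE, 3.80% for GAS and 10.1% for kappaB. Of 7 windows of the guanylate-binding protein and GTPase list 5 held an ISRE, as did 5 of 13 of the IFIT list, and 9 of 13 windows of the NF-kB list held a kappaB site. A GAS match overlapped an ISRE match in Myd88 and Ripk1. Windows of Lcn2, Ifi47, Ccl12 and Ch25h held none of the 3 sequences. These matches are a description of letters in the windows, and no binding was measured.

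In a list of nucleic acid sensors and related genes 7 of 10 members rose and none fell, with a median of 0.83. Ifih1, the sensor of long double-stranded RNA, went from 355, 344 and 332 to 1131, 1308 and 1015 (1.74 ± 0.09). The oligoadenylate synthetase-like gene Oasl2 and the nucleotide hydrolase Samhd1 rose by 1.45 ± 0.10 and 1.35 ± 0.11. Adar, the RNA editing enzyme, stood at −0.42 ± 0.19 and did not pass (adjusted p = 0.134). The sensor genes Ddx58, at the floor in mock, and Cgas (−0.19) did not pass either. Among TRIM ubiquitin ligases and PARP genes 5 of 8 rose and none fell, led by Rnf213 (1.75 ± 0.09), Parp9 (1.49 ± 0.09) and Trim25 (1.15 ± 0.14). Of 10 interferon regulatory factors and STAT genes 5 rose and 1 fell. Irf1, which carries the interferon signal to its target genes, rose from 542, 591 and 538 to 2073, 2513 and 2466 (2.07 ± 0.08), and Stat3 by 1.17 ± 0.09, whereas Irf3 fell by 0.46 on the log2 scale (SE 0.07).

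In MHC class I presentation 5 of 9 members rose and none fell (median 0.34). The peptide transporter Tap2 went from 1120, 1123 and 1017 to 2054, 2228 and 2072 (0.96 ± 0.07) and the class I heavy chain H2-D1 rose by 0.93 ± 0.07. B2m, the light chain, had LPS arrays both above and below mock and did not pass (0.29 ± 0.26). Of 6 immunoproteasome genes Psmb8 (1.35 ± 0.09), Psmb9 (0.81 ± 0.13) and Psme1 (0.27 ± 0.08) rose and none fell, but another, similarly bright probe of Psme1 did not pass (−0.05 ± 0.13, adjusted p = 0.802). In MHC class II 1 of 3 genes rose, H2-Eb1 by 0.22 ± 0.07 (adjusted p = 0.0489), and none with housekeeping scaling. The interferon receptor list held 1 higher and 2 lower genes of 6, with the receptor Ifngr1 at 0.56 ± 0.10.

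Among genes of LPS recognition and Toll-like receptors 8 of 14 measured members rose and none fell (median 0.65). Cd14, the receptor that hands LPS to TLR4, went from 522, 586 and 536 to 8596, 10244 and 9791 (4.12 ± 0.08, 17.4-fold). Tlr2, the receptor for bacterial lipoproteins, was at the floor in all mock arrays and at 2578, 2294 and 2072 with LPS, at least 8.77-fold higher. Both genes separated the groups completely, which for Cd14 was a condition for its place among the largest rises. The LPS-binding protein gene Lbp and the pathway inhibitor Irak3 were at least 3.96-fold and 3.17-fold higher, and the adaptor Myd88 rose by 1.25 ± 0.09. The MD-2 gene Ly96 (−0.17 ± 0.12), the adaptor genes Ticam1 (−0.01 ± 0.12) and Tirap (0.32 ± 0.13), Traf6 and Irak1 did not pass.

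NF-kB genes rose in 9 of 11 members and 1 fell, with a median of 1.17. The rises included feedback inhibitors of the pathway: Tnfaip3 went from 384, 476 and 403 to 1643, 1699 and 1718 (2.01 ± 0.08) and Nfkbia from 15963, 16039 and 14487 to 44871, 40440 and 43671 (1.47 ± 0.07). The subunit genes Nfkb2, Relb and Nfkb1 rose by 1.78 ± 0.07, 0.66 ± 0.09 and 0.57 ± 0.12, while Rela stood at 0.13 ± 0.08 and did not pass. Birc3, a ubiquitin ligase that protects cells from TNF-driven death, rose by 2.04 ± 0.08. Cyld, a deubiquitinase that limits NF-kB, fell by 0.30 on the log2 scale (SE 0.07).

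Most chemokine and cytokine genes on the lists were not measured in brain. Of 5 measured chemokines of the CC class 4 rose and none fell. Ccl12, which attracts monocytes, lay on the floor in every mock array and reached 3156, 2519 and 2608 with LPS, at least 10.4-fold higher, while Ccl9 and Ccl17 rose by 2.16 ± 0.09 and 1.25 ± 0.07. Among 4 CXC and CX3C chemokines 1 rose and 2 fell. Cxcl12, the homeostatic ligand of CXCR4 made by vessel and meningeal cells, fell from 5896, 5957 and 6834 to 1034, 1199 and 928 (−2.57 ± 0.10). Its other bright probe was also lower but by far less (−0.38 ± 0.09, adjusted p = 0.0155), so the size of the fall depends on the probe. The 3 measured chemokine receptor genes were the venular scavenger Ackr1, which rose by 1.28 ± 0.10, Cx3cr1, which fell, and Cxcr5, which did not pass. In the IL-1 family the receptor Il1r1 rose by 1.34 ± 0.06, and the alarmin Il33 and the protease Casp1 fell (log2 difference −0.41 and −0.40), so that 1 of 5 rose and 2 fell.

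The cytokine signal inhibitor Socs3 went from 1188, 1118 and 1060 to 9247, 8720 and 7968 (2.94 ± 0.07). It belonged to a list of IL-6 family, STAT3 and SOCS genes in which 5 of 10 members rose and 1 fell, and 2 rose with housekeeping scaling. Il4ra rose by 1.61 ± 0.13, whereas Socs1 (0.01 ± 0.08) and Socs2 (0.03 ± 0.09) did not pass. In the TNF list 4 of 6 genes rose and none fell, with the TNF receptor Tnfrsf1a at 1.53 ± 0.07. With housekeeping scaling, or with any 1 mock or LPS array left out, 3 rose. Colony-stimulating factor Csf1 rose by 0.98 ± 0.06 and its receptor Csf1r fell by 0.50 on the log2 scale (SE 0.10), in a list of 5 with 1 higher and 3 lower. Of 9 prostaglandin and eicosanoid genes 2 rose and 3 fell. The cyclooxygenase Ptgs2, which makes the fever mediator prostaglandin, rose from 1276, 1219 and 1428 to 3540, 3137 and 2205 (1.15 ± 0.17), and the thromboxane synthase Tbxas1 was at least 1.87-fold lower.

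All 6 acute-phase and siderophore genes, of 21 listed, were higher (median 1.91), among them the copper carrier Cp, from 1173, 1221 and 1096 to 5515, 5832 and 5831 (2.30 ± 0.06), and Lrg1 (2.06 ± 0.06). In the complement list 5 of 6 rose and C1qc did not pass (median 0.69), with the C1 inhibitor Serping1 at 1.25 ± 0.09, C3 at 0.84 ± 0.10 and C1qb at 0.75 ± 0.09. Of 8 coagulation genes 1 rose and 2 fell: the plasminogen activator Plat rose by 0.72 ± 0.07 and the anticoagulant Thbd fell by 0.89 on the log2 scale (SE 0.06). Alb, the serum albumin gene of liver, was at the floor in mock and at 1040, 983 and 1195 with LPS, at least 4.06-fold higher.

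**Figure D2:**
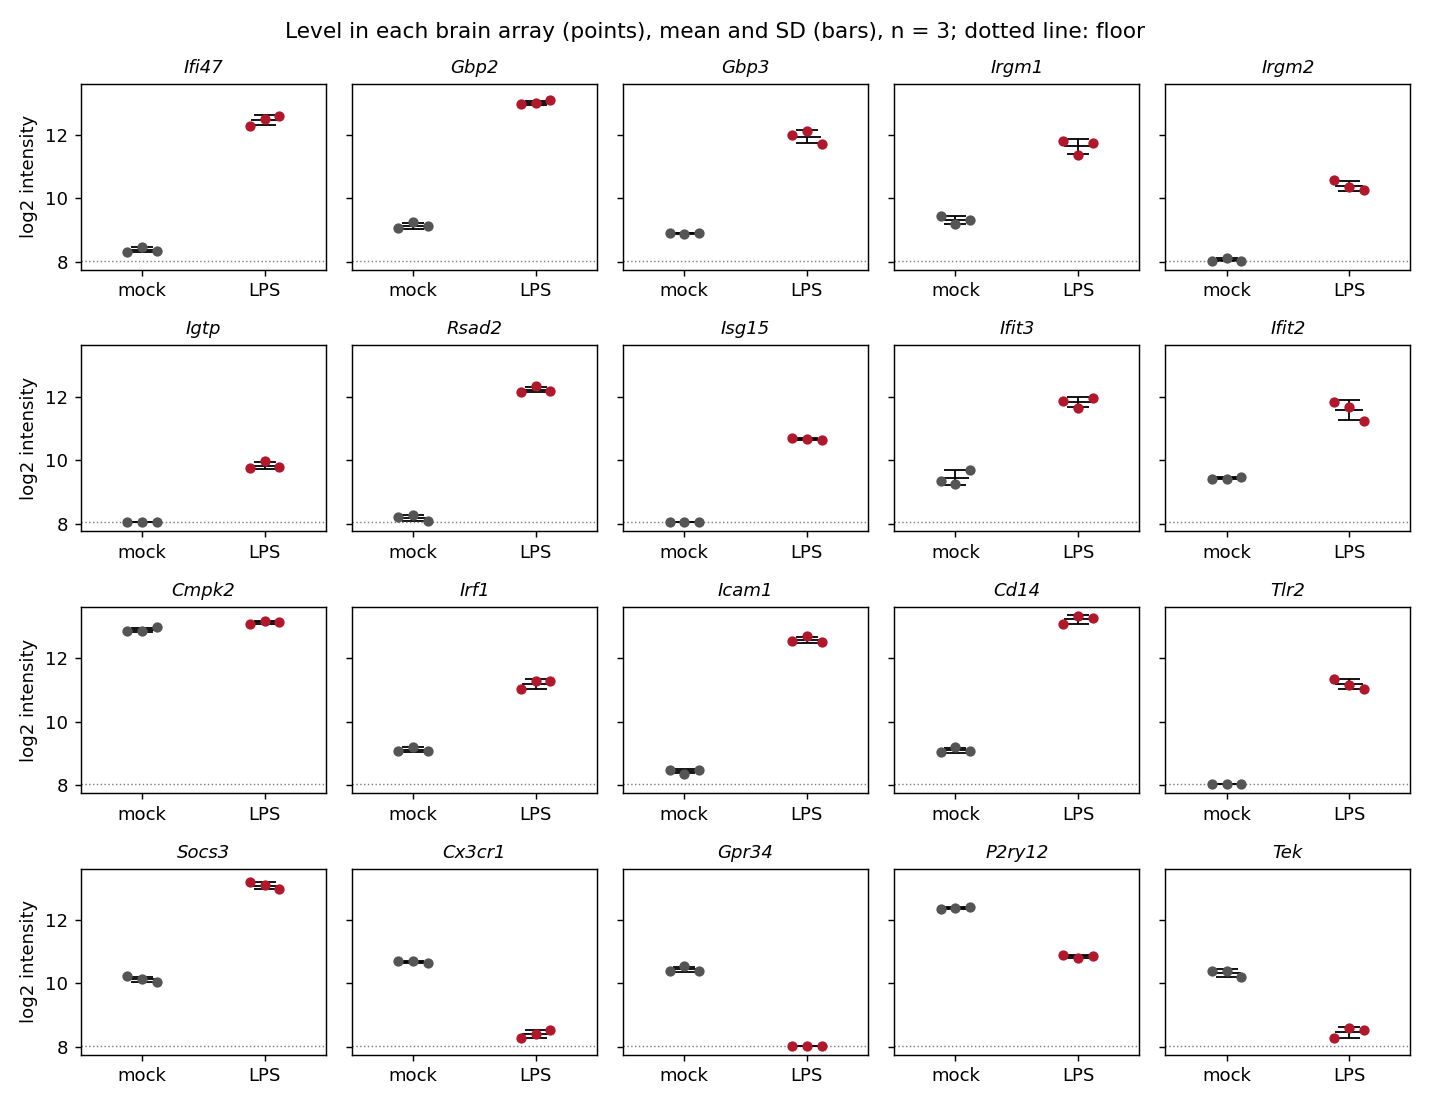
Log2 intensity of 20 genes in each of the 3 mock (grey) and 3 LPS (red) brain arrays, with the mean and SD as black bars and the floor as a dotted line. Cmpk2 is nearly as bright in mock as with LPS, unlike its neighbour Rsad2. Cx3cr1, Gpr34, P2ry12 and Tek in the bottom row are lower with LPS in all 3 arrays.

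Most genes of resting microglia fell. Of 23 measured members of the homeostatic microglia list 15 fell and 2 rose (median −0.50), against 17.5% and 16.4% of all genes. The fractalkine receptor Cx3cr1 went from 1647, 1651 and 1588 to 308, 338 and 368 (−2.27 ± 0.07) and the ADP receptor P2ry12 from 5227, 5262 and 5451 to 1906, 1771 and 1847 (−1.53 ± 0.05). Gpr34, a lysophospholipid receptor, reached the floor on all LPS arrays from 1351, 1489 and 1352, at least 5.31-fold lower. The 3 LPS arrays lay below the 3 mock arrays for each of these, which for Cx3cr1 was a condition for its place among the largest falls. Tmem119 and Olfml3 fell (log2 difference −1.37 ± 0.13 and −0.99 ± 0.06), and Aif1, the IBA1 stain of microglia, by 0.90 (SE 0.11). The phagocytic receptor Mertk rose by 0.44 ± 0.10 and Itgam stood at 0.19 ± 0.08, not passed. The 6 measured microglia markers all fell, and their summed intensity was 22619 to 23956 in mock, 11213 to 13469 in LPS and 19747 to 20502 in LPS plus genipin brains. In bulk tissue fewer cells of a type and less RNA per cell cannot be told apart, here and for the other cell types below.

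Genes of activated microglia and macrophages went mostly the other way, with 10 of 15 higher and 2 lower (median 0.65). Cd14, Ch25h and Spp1 led them, followed by the Fc gamma receptor Fcgr3, from 2674, 2829 and 2863 to 6143, 7946 and 6651 (1.30 ± 0.09), and Fcgr2b (0.99 ± 0.08). The lipoprotein lipase Lpl and the lysosomal Cd68 fell (log2 difference −0.87 ± 0.07 and −0.32 ± 0.08). Of 4 measured markers of monocytes and macrophages 1 rose and 3 fell, with their summed intensity at 3945 to 4138 in mock and 3172 to 3284 in LPS brains. Of 4 neutrophil markers the calprotectin genes S100a8 (1.42 ± 0.09) and S100a9 (1.27 ± 0.08) rose and 1 fell, with a sum of 1954 to 2008 in mock and 3645 to 4164 with LPS. No T cell marker was measured.

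Astrocyte genes described in reactive states mostly rose. All 7 measured pan-reactive genes were higher (median 0.98), among them Lcn2, Timp1 (at least 6.04-fold), Serpina3n (0.98 ± 0.09), Vim (0.68 ± 0.12) and the filament protein Gfap, from 4798, 4838 and 4946 to 6950, 7147 and 6533 (0.50 ± 0.05). All 10 measured genes of the type described as neurotoxic rose (median 1.11), and 8 with housekeeping scaling. Of 6 genes of the type described as protective 5 rose (4 with housekeeping scaling) and S100a10 fell by 0.41 on the log2 scale (SE 0.05). The pan-reactive list shares Lcn2, Cp and Serpina3n with the acute-phase list and Cd44 with the activated microglia list, so its count partly repeats theirs. The neurotoxic-type list shares Gbp2, Psmb8, H2-D1, H2-T23, Serping1 and Fkbp5 with the interferon, antigen presentation, complement and glucocorticoid lists, and the protective-type list shares Ptgs2 and Cd14. Srgn and Amigo2, members of no other list, rose by 1.67 ± 0.12 and 0.82 ± 0.09. Of 6 measured astrocyte markers 3 rose and 1 fell, with a summed intensity of 163576 to 175671 in mock and 176632 to 186242 with LPS.

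Genes of the vessel wall changed in both directions. In the angiopoietin, VEGF and vascular quiescence list 10 of 25 members fell and 6 rose (median −0.15). Angpt2, the antagonist of the receptor TIE2, went from 781, 820 and 753 to 2841, 2812 and 3150 (1.90 ± 0.08), while Tek, the TIE2 gene, fell from 1331, 1349 and 1169 to 308, 387 and 369 (−1.86 ± 0.10). The ligand gene Angpt1 did not pass (−0.06 ± 0.05). The VEGF receptor Kdr and the endothelial transcription factors Sox17 and Sox18 fell (log2 difference −1.43 ± 0.14, −1.42 ± 0.11 and −1.43 ± 0.04), and the barrier-stabilizing peptide Adm rose by 1.59 ± 0.12. Of 10 adhesion molecules 4 rose and 2 fell, with the cadherin Cdh5 at 1.22 ± 0.08 and Vcam1 at 0.44 ± 0.10, lost with housekeeping scaling (adjusted p = 0.137). Endothelial markers were thus split, with 1 higher and 4 lower of 7 and a summed intensity of 13377 to 14094 in mock and 11124 to 12527 with LPS.

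Among junction and transport genes of the blood-brain barrier 9 of 20 fell and 5 rose (8 and 2 with housekeeping scaling). The organic anion carrier Slco1a4 went from 968, 644 and 982 to 272, 263 and 263 (−1.67 ± 0.17) and the iron exporter Slc40a1 from 2335, 2443 and 2432 to 726, 900 and 726 (−1.62 ± 0.09). The caveolar Cav1 and the thyroid hormone carrier Slco1c1 fell (log2 difference −0.96 ± 0.13 and −0.95 ± 0.15). The tight junction genes Cldn5 and Tjp1 fell (log2 difference −0.35 ± 0.06 and −0.47 ± 0.07), and Ocln did not pass (−0.14 ± 0.05). The glucose transporter Slc2a1 stood at −0.18 ± 0.12, not passed. Plvap, a component of leaky vessels, rose by 0.55 ± 0.09 and the lipid carrier Mfsd2a by 0.52 ± 0.08.

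Of 15 matrix proteases and inhibitors 8 rose and none fell (median 0.42). The protease Adamts1 went from 3024, 3422 and 3133 to 13778, 14915 and 12308 (2.10 ± 0.08), Adamts9 rose by 1.75 ± 0.07 and the stromelysin Mmp3 was at least 2.43-fold higher. Mmp9 did not pass (−0.24 ± 0.10). Of 16 meningeal and perivascular fibroblast genes 7 fell and 2 rose (median −0.26), with the collagen Col3a1 at −0.76 ± 0.05 and the transcription factor Foxc2 at −0.78 ± 0.07, while the calcification inhibitor Mgp rose by 0.64 ± 0.08.

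Glucocorticoid-responsive genes rose in 15 of 21 members and 1 fell (median 0.74). The stress kinase Map3k6 went from 390, 384 and 389 to 2141, 1687 and 1756 (2.26 ± 0.12), the lipid droplet protein Plin4 rose by 2.18 ± 0.09, the cell cycle inhibitor Cdkn1a by 1.78 ± 0.06, Txnip by 1.43 ± 0.11 and the receptor co-chaperone Fkbp5 by 1.32 ± 0.12. The metallothioneins Mt1 and Mt2 were saturated in both groups, and Mt3 fell by 0.40 on the log2 scale (SE 0.08). The phosphatase Dusp1 did not pass (0.03 ± 0.11). In the cell cycle arrest and alpha-arrestin list 4 of 12 rose and 4 fell, with Gadd45g at 1.17 ± 0.06. Of 16 clock genes Rora (0.82 ± 0.07), Nr1d1 (0.45 ± 0.10) and Per1 (0.24 ± 0.08) rose and none fell, and 1 rose with housekeeping scaling.

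Early genes changed in both directions. Of 23 measured members 12 rose and 9 fell (7 and 9 with housekeeping scaling). The genes that fell included those switched on by neuronal activity: Arc, the synaptic capsid protein, went from 18112, 18226 and 17588 to 7767, 6010 and 5986 (−1.46 ± 0.10), Egr2 from 3810, 4034 and 3752 to 1245, 1214 and 1450 (−1.57 ± 0.07), and Egr4, Fosb and Nr4a2 fell (log2 difference −1.15 ± 0.06, −1.10 ± 0.07 and −0.98 ± 0.11). Fos itself and Npas4 fell (log2 difference −0.41 ± 0.11 and −0.68 ± 0.13), and the call of Fos was lost in 5 of 17 alternative analyses. The genes that rose included Zfp36, the matricellular Ccn1 (1.87 ± 0.08), Maff (1.51 ± 0.09) and Cebpb (1.46 ± 0.05), which are known targets of inflammatory signals. Jun, Junb, Btg2 and Klf6, which neuronal activity can also induce, rose (log2 difference 0.42 ± 0.08, 0.44 ± 0.07, 0.85 ± 0.12 and 0.37 ± 0.09), and of these Btg2 passed with housekeeping scaling. Among dual-specificity phosphatase and sprouty genes 3 of 14 fell and none rose, with Dusp4 at −0.69 ± 0.05.

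**Figure D3:**
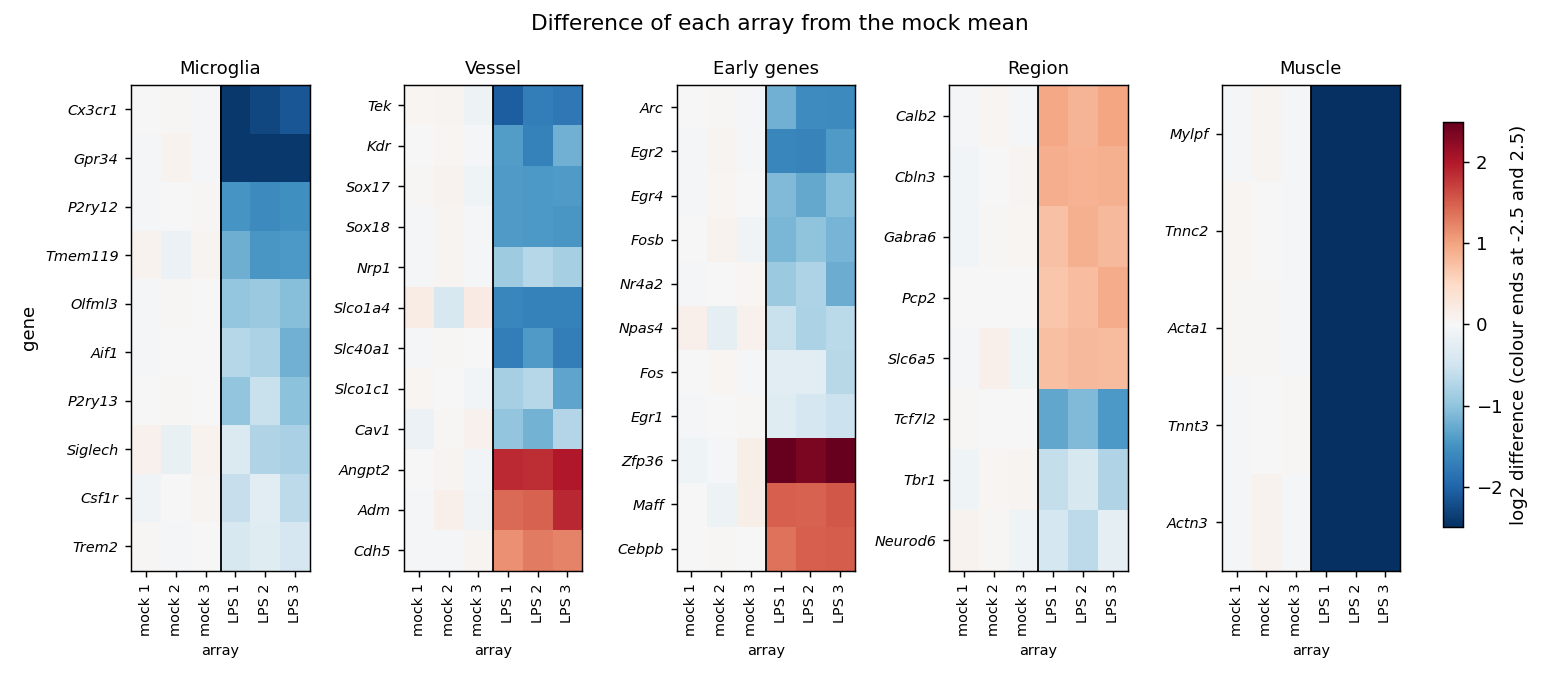
Difference of each mock and LPS array from the mock mean (log2, colour from −2.5 in blue to 2.5 in red) for genes of microglia, vessels, early response, brain regions and skeletal muscle. The 3 LPS arrays run in the same direction for each gene shown, and the 5 muscle genes shown lie beyond the end of the colour scale.

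Lists of neuronal genes held calls in both directions or lower calls alone. Of 15 synaptic vesicle genes 2 rose and 2 fell, and 8 lay at a limit in at least 1 group. Glutamate and GABA genes fell in 8 of 18 members and rose in 3 (1 rose with housekeeping scaling), with the receptor genes Grm3 at −0.67 ± 0.09 and Gabra2 at −0.57 ± 0.10 and the vesicular transporters Slc17a6 at −0.53 ± 0.09 and Slc17a7 at −0.40 ± 0.08. Gria3, counted among the falls, had called probes in opposite directions, at 0.34 and −0.33. Of 17 neuropeptide genes 4 fell and none rose: Cartpt, a feeding peptide, went from 3400, 3371 and 3351 to 1708, 2044 and 2094 (−0.80 ± 0.08), and substance P precursor Tac1 fell by 0.80 on the log2 scale (SE 0.09), while the stress hormone gene Crh did not pass (−0.37 ± 0.14). Among 12 monoamine genes 3 rose and 2 fell (2 and 4 with housekeeping scaling), with the dopamine receptors Drd3 at 0.80 ± 0.14, with 2 of 3 mock arrays at the floor, and Drd1 at −0.67 ± 0.11. Of 13 ion channel genes 4 rose and 1 fell (1 each with housekeeping scaling).

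Genes that mark brain regions differed between the groups, with 10 of 22 higher and 6 lower. Several genes of the cerebellum were higher: Gabra6, of granule cells, went from 15207, 16209 and 16532 to 26523, 29454 and 27868 (0.81 ± 0.06), Pcp2, of Purkinje cells, rose by 0.80 ± 0.07, and Cbln1 and Calb2 by 0.75 ± 0.04 and 0.94 ± 0.05. Cbln3, saturated with LPS, was at least 1.85-fold higher. Car8 of Purkinje cells (0.60 ± 0.27) and En2 (0.51 ± 0.17) did not pass, and En1, of midbrain and hindbrain, fell to the floor on all LPS arrays. The glycine transporter Slc6a5 of hindbrain and spinal cord rose by 0.78 ± 0.06. Tcf7l2, a transcription factor of the thalamus, fell from 2609, 2546 and 2529 to 1048, 1191 and 943 (−1.28 ± 0.09), and the cortical genes Tbr1 and Neurod6 fell (log2 difference −0.58 ± 0.10 and −0.45 ± 0.12), while the cortical genes Neurod2 (0.12 ± 0.06) and Fezf2 (0.00 ± 0.07) did not pass. These region markers move with the groups. Their part in the neuronal, myelin and early-gene values above and below, and in the comparison with other tissues, was not tested. Of 18 myelin genes 4 rose and 2 fell, with Mobp at 0.70 ± 0.07 and the lineage factor Sox10 at −0.72 ± 0.12.

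Of 22 oxidative phosphorylation subunits 1 fell and none rose, with a median of −0.06. Among 20 genes of the ATF4 response and endoplasmic reticulum chaperones 1 rose, Herpud1 by 0.59 ± 0.07, and 3 fell. Of 11 heat-shock chaperones 4 fell, between −0.20 and −0.37, and none rose. NRF2 target genes, which detoxify oxidants, rose in 4 of 20 and fell in 1, led by Hmox1 at 0.80 ± 0.10 (2 rose with housekeeping scaling). Of 14 cholesterol genes 5 rose and 1 fell, with the efflux pumps Abca1 and Abcg1 at 0.55 ± 0.09 and 0.53 ± 0.09 beside Ch25h, but Abcg1 did not pass when the probe was chosen over the 9 brain arrays alone (adjusted p = 0.804). With housekeeping scaling 3 rose. Among 10 housekeeping genes used for scaling 2 rose and none fell.

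**Figure D4:**
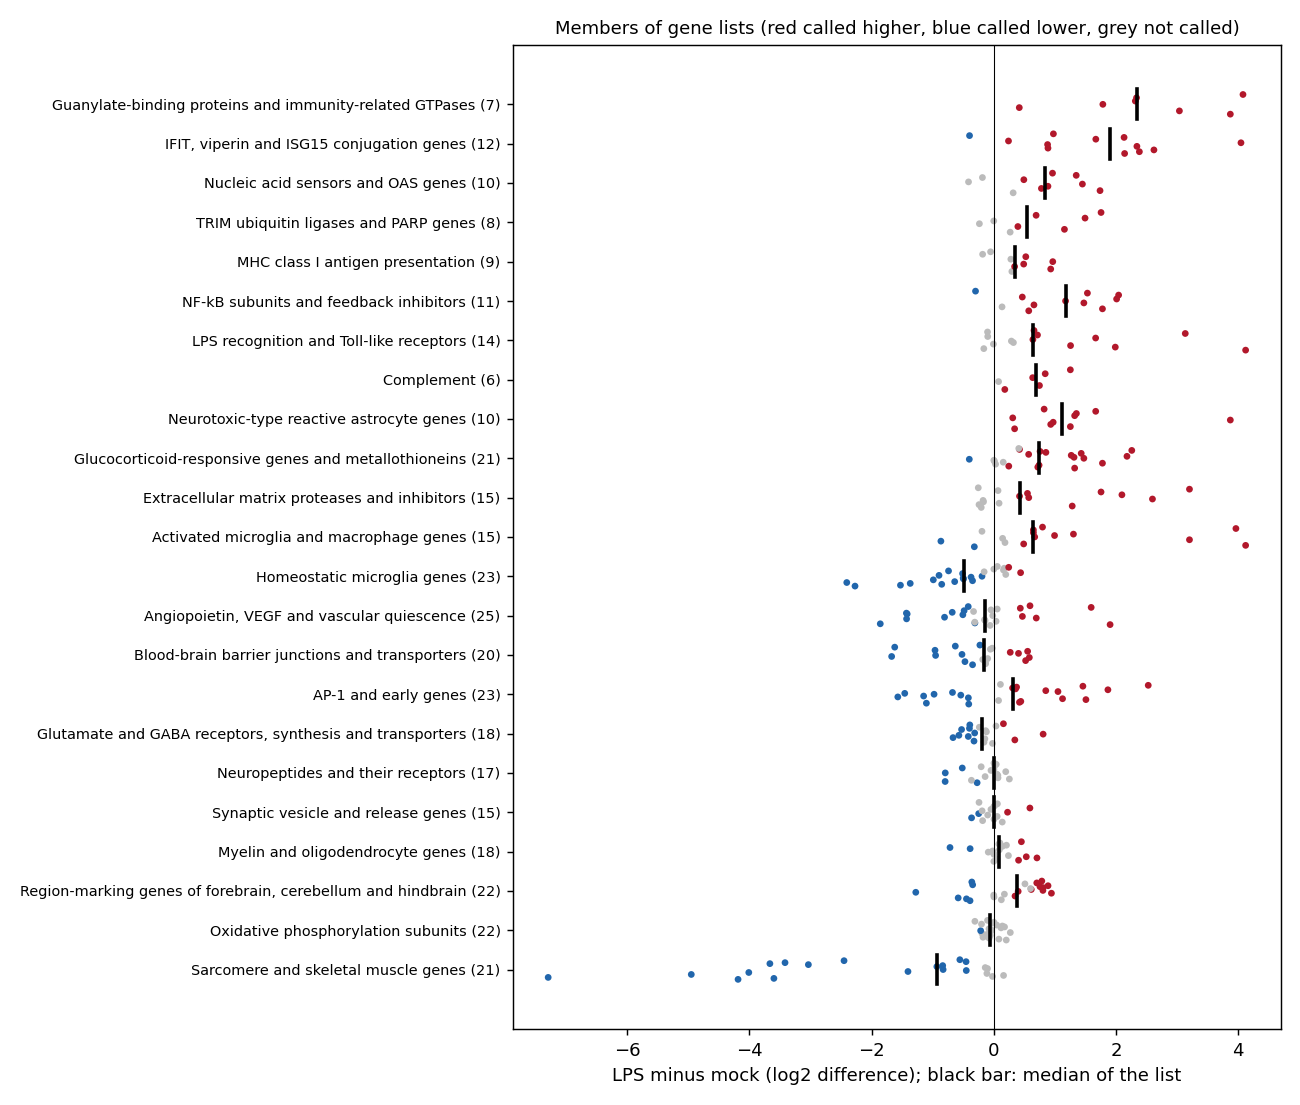
LPS minus mock difference (log2) of each measured member of 23 gene lists, with the number of members in brackets and the list median as a black bar. Red members were called higher, blue lower and grey not called. The interferon-inducible GTPase list has its median at 2.33, the homeostatic microglia list at −0.50 and the muscle list at −0.93.

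Transcripts of skeletal muscle were among the largest falls. Of 21 measured sarcomere and muscle genes 16 fell and none rose, and 9 of the 17 genes that fell at least 4-fold belonged to this list. Mylpf, the fast muscle light chain, stood at 50975, 55359 and 51551 in mock and 332, 388 and 292 with LPS (−7.29 ± 0.10). At a saturation limit of 50000 every mock array of Mylpf would count as saturated, and its fall would be a bound. Acta1, skeletal actin, stood at 42469, 41987 and 39792 against 2232, 2379 and 2210 (−4.19 ± 0.06). Tnnc2, Tnnt3 and Actn3 fell (log2 difference −4.95 ± 0.08, −4.01 ± 0.11 and −3.60 ± 0.05). All 3 mock arrays were bright for these genes. Every LPS array was lower than every mock array, which was a condition for their place among the largest falls. The 5 measured muscle markers summed to 115862 to 122687 in mock, 3713 to 3973 in LPS and 4012 to 4349 in LPS plus genipin brains. Mss51, Pgam2, Cox6a2, Tcap, Tmod4, Ttn, Cox8b and Unc45b, which fell by log2 differences of −1.03 to −3.67 or to a bound in that range, are also expressed in muscle. The fast isoforms are known from skeletal muscle, and the part of muscle tissue taken with the brains was not tested.

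Ttr, the thyroxine carrier of the choroid plexus, was saturated at 65487, 65485 and 64899 in mock and stood at 3190, 2404 and 3392 with LPS, at least 22-fold lower. It was saturated again in all 3 LPS plus genipin arrays. Of the other choroid plexus and ependymal genes the anti-ageing protein Kl fell by 0.75 on the log2 scale (SE 0.08), Otx2 rose by 0.70 ± 0.05, Folr1 lay at the floor in both groups and Clic6 did not pass (0.23 ± 0.11), so that 4 of 10 fell and 2 rose. The 4 measured choroid plexus markers, Ttr among them and 2 of them lower, summed to 66598 to 67218 in mock, 3899 to 4861 in LPS and 69629 to 70455 in LPS plus genipin brains. Ttr made up most of each sum, so the sums mainly repeat its values and say little about the other markers. The median log2 level of the 4 markers was 9.436 to 9.479 in mock and 9.124 to 9.265 in LPS brains. In LPS plus genipin brains it was 10.812 to 11.128, above mock. Kl stood at 11.17, 11.39 and 11.42 there against 9.85, 9.78 and 9.83 in mock. The part of sampled choroid plexus in the Ttr value was not tested.

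The brain response was set against the mean response of heart, kidney and liver, as the difference of the LPS minus mock differences over all 36 arrays, for the 6861 genes measured in every tissue. It differed for 3519 genes (51.3%). Genes with a mock or LPS group at a limit in any tissue were left out of the ranking that follows. The largest differences above that mean were those of the growth factor Gdf10 (2.82 ± 0.13) and Kank2 (2.65 ± 0.08). Gdf10 rose by 1.26 ± 0.10 in brain from 9524, 10319 and 8753 to 19738, 24531 and 24281, and stood at 0.31, −2.48 and −2.53 in heart, kidney and liver. Kank2 stood at 0.93 in brain and at −0.64, −1.11 and −3.40 in these tissues, so falls elsewhere made up much of both differences. The part of the brain regions sampled in the brain values of both genes was not tested. The 5′-nucleotidase Nt5e rose by 1.59 in brain and stood at 0.54, −0.17 and −1.14 in heart, kidney and liver. On the other side, Cmpk2 differed by −3.87 ± 0.09, at 0.24 in brain against 3.15, 4.21 and 4.97, and the alarmin Il33 by −3.39 ± 0.09, at −0.41 in brain against 3.51, 1.38 and 4.06. Fos stood at −0.41 in brain and at 3.06, 3.78 and 0.79 in the others, and S100a9 at 1.27 against 4.05, 4.12 and 4.27. Ifit2, which rose by 2.14 in brain, stood at 3.28, 5.57 and 4.96 in heart, kidney and liver, a difference of −2.46 from their mean. Among the genes ranked, Tnnc2 differed most, by −5.73 ± 0.21, and is one of the muscle transcripts described above.

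**Figure D5:**
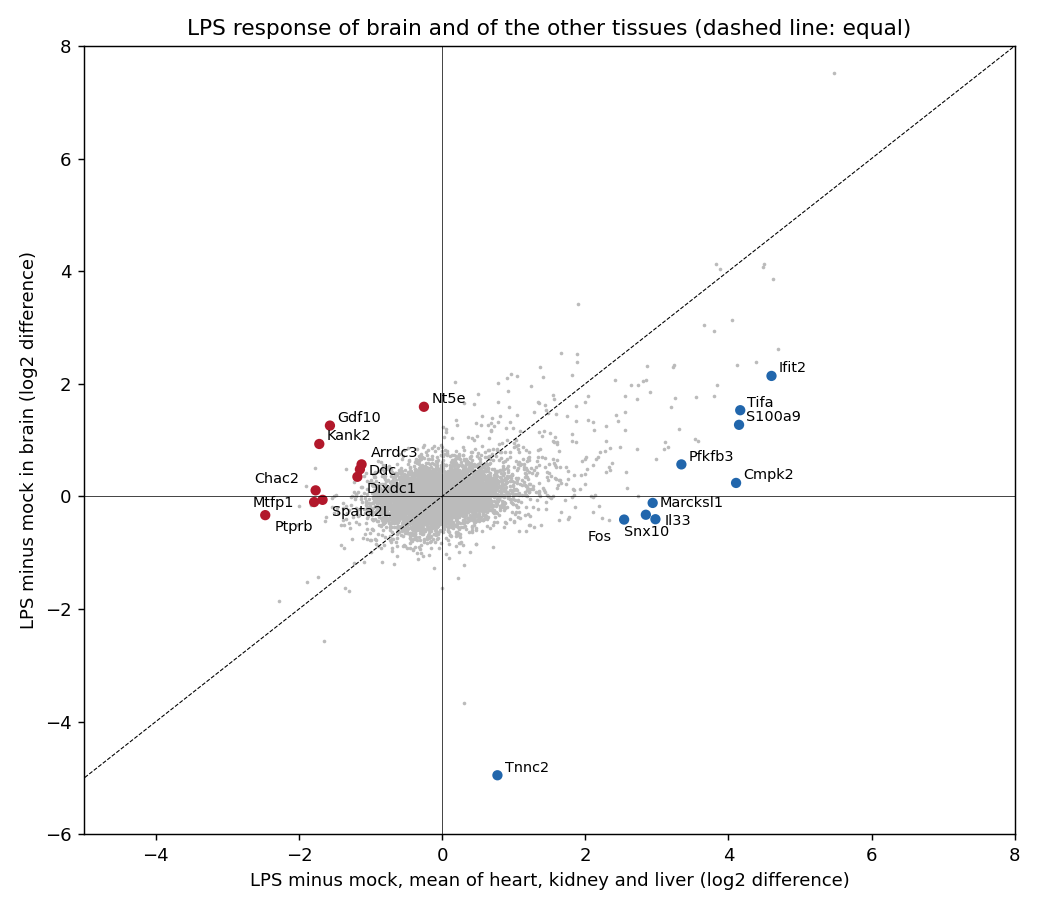
LPS minus mock difference in brain (log2, vertical) against the mean of the same difference in heart, kidney and liver (log2, horizontal) for 6861 genes, with a dashed line of equality. The 10 called genes farthest above (red) and below (blue) the mean of the other tissues are named. Genes with a mock or LPS group at a limit in any tissue were left out of the naming. Cmpk2 lies near 0.24 in brain and 4.11 in the others.

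Probes limited some of these values. Of 1614 genes with several probes in brain, 249 had at least 2 called probes, of which 218 agreed in direction and 31 did not. The widest gap between called probes was that of the kinase Taok3, at 1.68 and −0.64, followed by Anp32a at 0.22 and −1.67 and Bcl2 at 0.59 and −0.68, which are left without a direction. Jak2, the kinase of interferon gamma and IL-6 receptors, differed between its probes. Its brighter probe went from 2433, 2515 and 2278 to the floor on all LPS arrays, at least 9.15-fold lower (adjusted p = 0.00732), and the other probe did not pass (0.15 ± 0.12). On the brighter probe 1 LPS plus genipin array was also low, at 8.64 (log2), and the others stood at 11.25 and 11.44. Dock8, Hspa12b and Mlf1, in none of the lists, fell to the floor on all LPS arrays, at least 2.25-fold, 2.10-fold and 4.36-fold lower.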

How the data were processed

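Total RNA of brain, heart, kidney and liver was labelled with Cy5 and hybridised to 1-colour arrays, 36 in all. The authors deposited a table of normalized linear intensity values for 18183 probes. Its brain columns have nearly equal medians (2096 to 2098), and how they were normalized was not given in the sources used here. The tool limma is named in the submitters' processing notes, without a version or role. Array number limits the precision, and sequencing depth does not apply. Of the probes, 14817 had 1 gene symbol and 3366 none. Each gene took the probe with the highest mean over the 36 arrays. Values under the 5th percentile (263) were set to it, and log2 taken.

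Group means were fitted with limma 3.58.1 (R 4.3.3) over the 9 brain arrays, and the brain response against the other tissues over 36. P-values were Benjamini-Hochberg adjusted over all genes. Figures were drawn with matplotlib 3.10.9, and tables were made with numpy 2.4.6 and pandas 2.3.3 under Python 3.11.15. The scripts were tested on simulated data. Named genes were the 15 largest rises and 15 largest falls among called genes off any limit whose mock and LPS arrays did not overlap. Up to 8 bounds each way, up to 5 called members of each list and uncalled members given with their values were added. So were up to 6 genes with opposite probes and 10 genes each way differing between tissues, with no mock or LPS group at a limit. Further list members and markers were chosen after their values were seen. Members and lists were chosen with earlier results of these data known. Alternatives were other floors, probe rules, scaling, sets of arrays, a replicate block, a minimum fold and leaving out each array. Same-numbered arrays are not stated to be paired. LPS plus genipin brains were not tested against the other groups, and only their levels are given.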

Additional observations from a re-analysis of the deposited data

Results flagged for a closer look

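Genes whose LPS response in brain differed from the mean response of heart, kidney and liver numbered 3519 of 6861, by limma's test of the difference itself with Benjamini-Hochberg adjustment. The values below are brain minus that mean on the log2 scale, and no cause was tested.

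The brain response was above that mean for Gdf10 (2.82), Kank2 (2.65), Ptprb (2.14), Chac2 (1.87), Nt5e (1.85), Arrdc3 (1.69), Mtfp1 (1.69), Ddc (1.63), Spata2L (1.61) and Dixdc1 (1.53). Of these, Ptprb, Chac2, Mtfp1 and Spata2L did not pass in brain, at −0.33, 0.11, −0.10 and −0.06 against means of −2.47, −1.77, −1.79 and −1.67 in the other tissues. Arrdc3 stood at 0.57 in brain, below the 1.05 of heart, and its difference rested on liver, at −4.66. Ddc stood at 0.48 in brain, 0.06 in heart and −0.05 in kidney, and its difference rested mostly on liver, at −3.46. The brain response was below the mean for Tnnc2 (−5.73), Cmpk2 (−3.87), Il33 (−3.39), Snx10 (−3.17), Marcksl1 (−3.06), Fos (−2.95), S100a9 (−2.88), Pfkfb3 (−2.77), Tifa (−2.63) and Ifit2 (−2.46). Snx10 and Marcksl1 did not pass in brain, at −0.33 and −0.12. Tifa, an adaptor of NF-kB signalling, rose by 1.53 in brain and stood at 3.57, 3.60 and 5.33 in the other tissues.

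Probes without a gene symbol, which enter no comparison above, were tested in the same way in brain. Of 2432 such probes 784 were called (32.2%), 344 higher and 440 lower, and 49 by at least 2-fold. The largest rise was 3.22 and the largest fall −1.62 on the log2 scale.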

How the results depend on the processing

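The 46 genes with the largest changes and bounds kept their call and direction under each alternative that tested them. With a filter on dim genes this was 43 of 43. These genes were picked for their size, and the lists were less stable. With housekeeping scaling early genes went from 12 higher and 9 lower to 7 and 9. Monoamine genes went from 3 and 2 to 2 and 4. Some small list medians changed sign, as for myelin genes from 0.0853 to −0.0181. Against a minimum change of 1.2-fold (limma's treat) 875 genes were called, 478 higher and 397 lower. With housekeeping scaling, which moved mainly LPS array 3, 2462 were called, of which 777 were higher. Leaving out 1 array in turn gave 2261 to 3711 calls, 1137 to 1915 higher and 1124 to 1865 lower, with the lowest count without mock array 3. The replicate block gave 3423 calls, and deviations of same-numbered arrays correlated at 0.149, 0.0517 and −0.125, so the numbers are not taken as pairs. The brain against other tissues count was 3187 to 3553 with 1 array left out and 3419 with the replicate block. Of 355 called list and named genes 202 kept their call under every alternative, and 257 under every one but the minimum fold. Genes at the floor or saturated give bounds only. At a saturation limit of 50000 such genes numbered 588 in place of 534, with Lcn2 and Mylpf among those added.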
